A study of Mus with 10 samples.

Results

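The genes described here encode proteins that cap or sever actin filaments. They are *Capg*, the gelsolin family members *Gsn*, *Flii*, *Svil*, *Scin* and *Vil1*, and the capping protein subunits *Capza1*, *Capza2* and *Capzb*, which make 9 of the 24564 genes in the deposited count table. *Capg* was chosen by its lower measured level in *Ncr1*gfp/gfp cells, that is by its fold change and adjusted p in the comparison described below, and the other 8 genes were added by protein family. The values of *Capg* are therefore a description, and no test is drawn from them. RNA sequencing was performed on type 1 innate lymphoid cells (ILC1s), tissue-resident lymphocytes, freshly sorted from the liver of untreated C57BL/6 mice that were *Ncr1*+/+ (5 libraries) or *Ncr1*gfp/gfp (5 libraries). In *Ncr1*gfp/gfp mice the sequence of *gfp* replaces *Ncr1*, the gene of the activating receptor NKp46, in every cell of the animal. ILC1s were gated as lineage-negative NK1.1+ CD49a+ CD49b- cells with an antibody against NKp46 in *Ncr1*+/+ mice and by GFP in *Ncr1*gfp/gfp mice, so that the genotype and the marker used for the gate cannot be told apart. The mice were young adults of either sex, and the study speaks of RNA pools without giving the number of mice in each. The p-values thus measure the spread between libraries, which may be technical.

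Actin filaments grow and shrink mainly at one end, the barbed end. Capping protein, a dimer of an alpha subunit (CAPZA1 or CAPZA2) and a beta subunit (CAPZB), closes that end and stops both the addition and the loss of subunits. Proteins of the gelsolin family share a repeated fold that binds actin and respond to calcium or to membrane phosphoinositides. Gelsolin, scinderin and villin can cut a filament and then stay on the new barbed end, whereas CAPG caps without cutting. In lymphocytes, the turnover of actin supports migration and the contact with target cells.

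Total counts per library ranged from 15796253 to 22623133, so that 3 counts correspond to 0.132 to 0.190 counts per 1000000 counts of a library (CPM). *Ncr1* itself, the targeted gene, was at 12.7% of its *Ncr1*+/+ mean in *Ncr1*gfp/gfp libraries. Summed levels of 7 ILC1 marker genes in the table ranged from 3973 to 4271 CPM in *Ncr1*gfp/gfp and from 3989 to 4251 CPM in *Ncr1*+/+ libraries, while the 6 NK cell markers together stayed between 46.5 and 89.2 CPM. Of these ILC1 markers, *Itga1*, the gene of the gate marker CD49a, was higher in *Ncr1*gfp/gfp (928 to 1012 CPM against 732 to 805 CPM) and *Il7r* was lower (45.1 to 135 CPM against 131 to 199 CPM), with adjusted p of 0.000481 and 0.00773 (edgeR's quasi-likelihood test). *Ncr1*gfp/gfp replicate 3 and *Ncr1*+/+ replicate 1 stood apart with the highest sums of hepatocyte markers, at 214 and 182 CPM. *Trf* made 91.0% of these sums over all libraries, at 120 to 145 CPM in *Ncr1*gfp/gfp and 131 to 146 CPM in *Ncr1*+/+. *Alb* was at 38.0 and 28.0 CPM in these 2 libraries and between 0.971 and 4.69 CPM in the others. With these 2 libraries left out, which was decided after seeing the data, the other 6 members that could be tested were still not past the threshold used below. *Capg* was past it, which is a description, since the gene was chosen in this comparison.

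The level of each gene was first set beside that of the others, as CPM per kilobase of exon (RPKM), which corrects for exon length. Over the 10 libraries, *Capzb* was the highest at 304 ± 13.3 RPKM (SD, n = 10). *Flii* followed at 66.8 ± 3.78 RPKM and *Capza2* at 66.7 ± 4.43 RPKM. *Capza1* had 23.8 ± 1.77 RPKM, *Svil* 20.1 ± 1.29 RPKM, *Gsn* 7.81 ± 1.33 RPKM and *Capg* 3.94 ± 1.89 RPKM. Within a library, *Flii* was above *Capza2* in 5 of 10 libraries, so these neighbours in the order do not differ beyond their spread. The ranges of *Capza1* and *Svil* and of *Gsn* and *Capg* overlapped over the 10 libraries, although within a library *Capza1* was above *Svil* in 10 of 10 and *Gsn* above *Capg* in 9 of 10. Among the 11463 genes that passed a filter on low counts, *Capzb* was at the 99.3rd percentile of mean RPKM, *Flii* at the 92.9th, *Gsn* at the 40.0th and *Capg* at the 25.9th. *Vil1* and *Scin*, at a mean of 0.125 and 0.0163 RPKM, did not pass that filter. Liver ILC1s thus carried transcripts of the capping protein dimer, *Flii* and *Svil* at medium to high levels, and *Capg* was the lowest of the 7 members that could be tested.

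**Figure D1:**
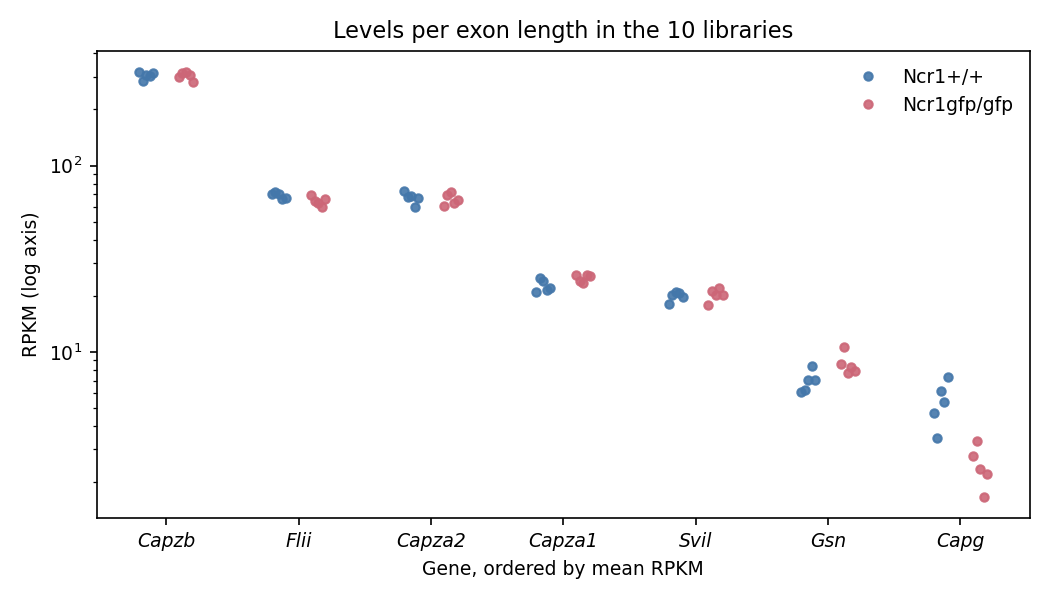
RPKM on a log axis for the 7 members that passed the filter, ordered by mean, with each point 1 library (blue, *Ncr1*+/+, n = 5, and red, *Ncr1*gfp/gfp, n = 5). *Capzb* stands highest at a mean of 304 RPKM and *Capg* lowest at 3.94 RPKM, and only *Capg* has separate ranges for the genotypes.

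*Capg* encodes a capping protein without severing activity that is best known from macrophages, where it is abundant. The table places it on chromosome 6, bases 72494385 to 72512977, plus strand, with 1917 exonic bases, and names no genome build for its coordinates, which differ from GRCm38 for each of the 9 genes. Its level was 9.03, 6.66, 11.8, 10.3 and 14.1 CPM in *Ncr1*+/+ replicates 1 to 5 and 5.33, 6.35, 4.50, 3.21 and 4.22 CPM in *Ncr1*gfp/gfp replicates 1 to 5. Every *Ncr1*gfp/gfp library was below every *Ncr1*+/+ library, and the closest pair was replicate 2 of each genotype. These values rest on 151 to 260 reads per *Ncr1*+/+ library and 54 to 139 reads per *Ncr1*gfp/gfp library. The 95% Poisson intervals of that closest pair, 5.64 to 7.81 CPM in *Ncr1*+/+ and 5.34 to 7.50 CPM in *Ncr1*gfp/gfp, overlapped (counting error only, since reads amplified by PCR are not independent molecules).

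The mean of *Capg* was 10.4 ± 2.83 CPM in *Ncr1*+/+ and 4.72 ± 1.18 CPM in *Ncr1*gfp/gfp ILC1s (SD, n = 5 each). The log2 fold change of *Ncr1*gfp/gfp against *Ncr1*+/+ was -1.13 (standard error 0.23, 95% interval -1.61 to -0.65), a fitted level 2.19-fold higher in *Ncr1*+/+. These are the values by which the gene was chosen, with an adjusted p of 0.0123 from edgeR's quasi-likelihood test after Benjamini-Hochberg adjustment over the 11463 genes. By that p, *Capg* was number 74 of 155 genes under 0.05, and by log2 fold change number 14 of the 61 genes called lower. A call needed an adjusted p under 0.05 together with a fold of more than 1.5 or less than 0.7, which held for 0.733% of the tested genes in either direction and for 0.532% as lower genes. Leaving out single libraries moved this value between -1.27 and -0.996, and the largest adjusted p was 0.048, without *Ncr1*+/+ replicate 5 (edgeR's quasi-likelihood test). In bulk RNA, fewer cells with the transcript and less transcript per cell cannot be told apart, and *Capg* at a few CPM could come from all cells or from few.

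**Figure D2:**
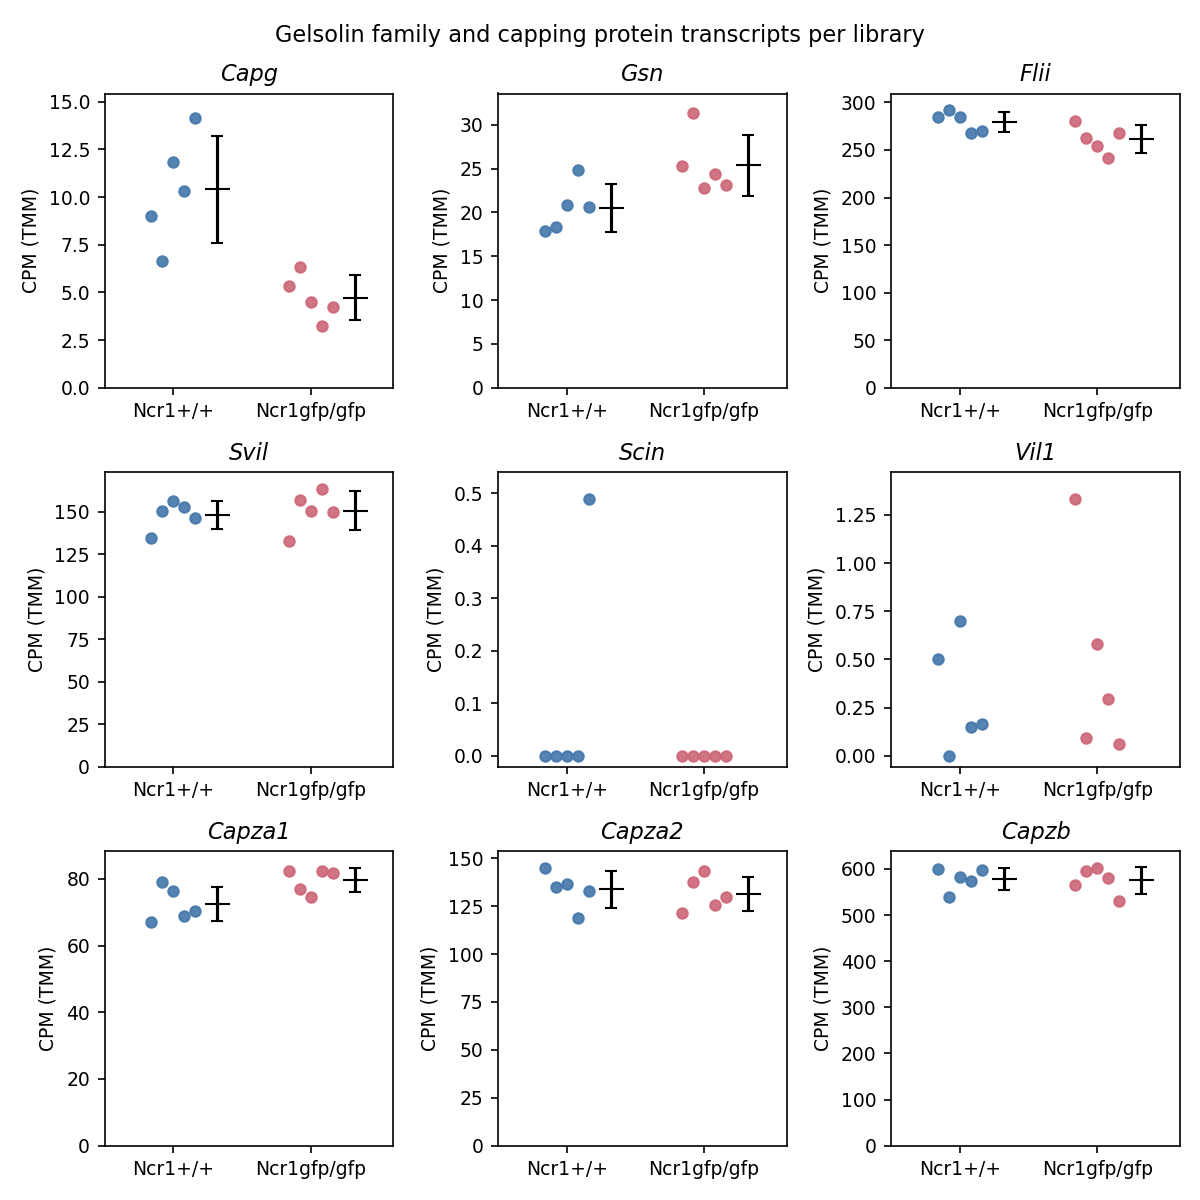
CPM after TMM normalization of the 9 genes in each library (points, replicates 1 to 5 from left to right), with the mean and SD as bars (n = 5 per genotype) except for *Scin* and *Vil1*, which are near 0. The *Capg* points are apart, from 3.21 to 6.35 CPM in *Ncr1*gfp/gfp and from 6.66 to 14.1 CPM in *Ncr1*+/+, while the points of the other 8 genes overlap.

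*Gsn* encodes gelsolin, which severs and caps filaments and also has a secreted plasma form. The table places it on chromosome 2, bases 35111879 to 35163422, plus strand. Its level was 17.9, 18.4, 20.9, 24.8 and 20.7 CPM in *Ncr1*+/+ replicates 1 to 5 and 25.3, 31.3, 22.8, 24.4 and 23.1 CPM in *Ncr1*gfp/gfp replicates 1 to 5. In 4 of the 5 *Ncr1*+/+ libraries *Gsn* was lower than in every *Ncr1*gfp/gfp library, and *Ncr1*+/+ replicate 4 lay within the *Ncr1*gfp/gfp range. The log2 fold change was 0.31 (standard error 0.12, 95% interval 0.05 to 0.56), opposite in sign to that of *Capg*. It did not pass the threshold, with an adjusted p of 0.313 (edgeR's quasi-likelihood test and Benjamini-Hochberg adjustment), and leaving out single libraries moved the value between 0.22 and 0.38.

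*Gsn* and *Capg* stood closer together in *Ncr1*+/+ than in *Ncr1*gfp/gfp cells. In *Ncr1*+/+ ILC1s, *Gsn* had 6.99 ± 0.935 RPKM and *Capg* 5.42 ± 1.48 RPKM (SD, n = 5), and in replicate 5 *Capg*, at 7.38 RPKM, was above *Gsn*, at 7.04 RPKM. In *Ncr1*gfp/gfp ILC1s, *Gsn* had 8.64 ± 1.18 RPKM and *Capg* 2.46 ± 0.618 RPKM (SD, n = 5), and *Gsn* was higher in each library. Since *Capg* was chosen for its difference between the genotypes, this contrast is a description.

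*Flii* encodes flightless-1, which joins gelsolin repeats to leucine-rich repeats and also acts as a coactivator of transcription. Its place in the table is chromosome 11, bases 60527649 to 60540765, minus strand. The level of *Flii* was 285, 292, 285, 267 and 270 CPM in *Ncr1*+/+ replicates 1 to 5 and 281, 263, 254, 242 and 268 CPM in *Ncr1*gfp/gfp replicates 1 to 5. The genotypes overlapped, with 3 *Ncr1*gfp/gfp libraries below the lowest *Ncr1*+/+ library. Its log2 fold change was -0.10 (standard error 0.05, 95% interval -0.21 to 0.02), with an adjusted p of 0.532 (edgeR's quasi-likelihood test). *Flii* shares 42 bases with *Llgl1* on the opposite strand, and the mean counts of these genes were 5122 and 1056.

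*Svil* encodes supervillin, a large protein at the membrane that binds actin filaments and myosin II. It was at 135, 151, 156, 153 and 146 CPM in *Ncr1*+/+ replicates 1 to 5 and at 133, 157, 151, 163 and 149.8 CPM in *Ncr1*gfp/gfp replicates 1 to 5. In both genotypes replicate 1 was the lowest and the ranges were nearly the same. The log2 fold change was 0.02 (standard error 0.07, 95% interval -0.11 to 0.16, adjusted p = 0.941, edgeR's quasi-likelihood test).

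Of the 9 genes, the remaining *Scin* and *Vil1* were at the limit of detection. *Scin*, the gene of scinderin (adseverin), which severs cortical actin in secretory cells, had 0 counts in 9 libraries, where a count of 0 allows up to 0.132 to 0.190 CPM. The exception was *Ncr1*+/+ replicate 5 with 9 counts (0.49 CPM). *Vil1*, the gene of villin, the bundling and severing protein of epithelial microvilli, was covered by 9, 0, 14, 3 and 3 reads in the *Ncr1*+/+ libraries and by 21, 2, 11, 5 and 1 reads in the *Ncr1*gfp/gfp libraries, in replicate order. The ranges of *Vil1* overlapped, with the highest count in *Ncr1*gfp/gfp replicate 1, and neither *Scin* nor *Vil1* was tested at these counts. *Vil1* also shares 51 bases with *Usp37* on the opposite strand, which had a mean of 1707 counts against 6.9 for *Vil1*.

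The alpha subunits of capping protein come from separate genes. *Capza1* was at 67.2, 79.2, 76.4, 69.0 and 70.3 CPM in *Ncr1*+/+ replicates 1 to 5 and at 82.4, 76.9, 74.6, 82.4 and 81.6 CPM in *Ncr1*gfp/gfp replicates 1 to 5. *Capza2* was at 145, 135, 137, 119 and 133 CPM in *Ncr1*+/+ and at 121, 137, 143, 125 and 129.5 CPM in *Ncr1*gfp/gfp replicates 1 to 5. For *Capza1*, 3 *Ncr1*gfp/gfp libraries were above the highest *Ncr1*+/+ library, while the values of *Capza2* were mixed. The log2 fold change was 0.14 for *Capza1* (standard error 0.07, 95% interval -0.01 to 0.29, adjusted p = 0.498) and -0.02 for *Capza2* (standard error 0.07, 95% interval -0.17 to 0.12, adjusted p = 0.941, both from edgeR's quasi-likelihood test). *Capzb*, the only gene of the beta subunit, was at 600.0, 540, 582, 573 and 597 CPM in *Ncr1*+/+ replicates 1 to 5 and at 566, 596, 603, 580 and 531 CPM in *Ncr1*gfp/gfp replicates 1 to 5. The genotypes overlapped over nearly their whole range, and the log2 fold change was -0.01 (standard error 0.05, 95% interval -0.11 to 0.09, adjusted p = 0.973, edgeR's quasi-likelihood test).

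The balance of the subunit transcripts was also similar. In RPKM, the beta subunit transcript was 3.39 ± 0.243 times the sum of both alpha subunit transcripts in *Ncr1*+/+ and 3.33 ± 0.147 times in *Ncr1*gfp/gfp ILC1s (SD, n = 5 each). The range over all libraries was 3.06 to 3.71. RNA per exon length does not measure the ratio of the proteins. *Capza2* made 74.8% ± 1.77 of the alpha subunit RPKM in *Ncr1*+/+ and 72.5% ± 2.23 in *Ncr1*gfp/gfp ILC1s (SD, n = 5 each), and these ranges overlapped.

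The transcripts of *Capg*, *Gsn*, *Flii*, *Svil*, *Scin* and *Vil1* were summed, without the family genes *Avil* and *Vill*, which are described below. They added to 101.5 ± 2.09 RPKM in *Ncr1*+/+ and 96.1 ± 3.52 RPKM in *Ncr1*gfp/gfp ILC1s (SD, n = 5 each). *Flii* made up most of this sum, with 68.0% in *Ncr1*+/+ and 67.1% in *Ncr1*gfp/gfp, and *Svil* a further 19.6% and 21.2%. The share of *Capg* was 5.34% ± 1.44 in *Ncr1*+/+ and 2.55% ± 0.559 in *Ncr1*gfp/gfp ILC1s (SD, n = 5 each), and that of *Gsn* was 6.89% and 8.98%. *Capg* was thus a small part of this sum in both genotypes.

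Of the 9 members, 7 passed the filter on low counts and 1 of these, *Capg*, was at an adjusted p under 0.05 (edgeR's quasi-likelihood test and Benjamini-Hochberg adjustment), where 1.35% of all tested genes were, 0.785% lower and 0.567% higher. *Capg* was also the only one of the 7 with no overlap between the genotypes, as in 3.11% of all tested genes, with 1.82% lower and 1.28% higher in *Ncr1*gfp/gfp. Nothing is read from these counts, since *Capg* was chosen in this contrast. The log2 fold changes of the 7 genes had a median of -0.01, with 4 lower and 3 higher in *Ncr1*gfp/gfp, against a median of 0.00 over all tested genes. For the 6 members other than *Capg*, the 95% interval of the fold change lay within 1.5-fold in either direction, which held for 70.9% of all tested genes.

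**Figure D3:**
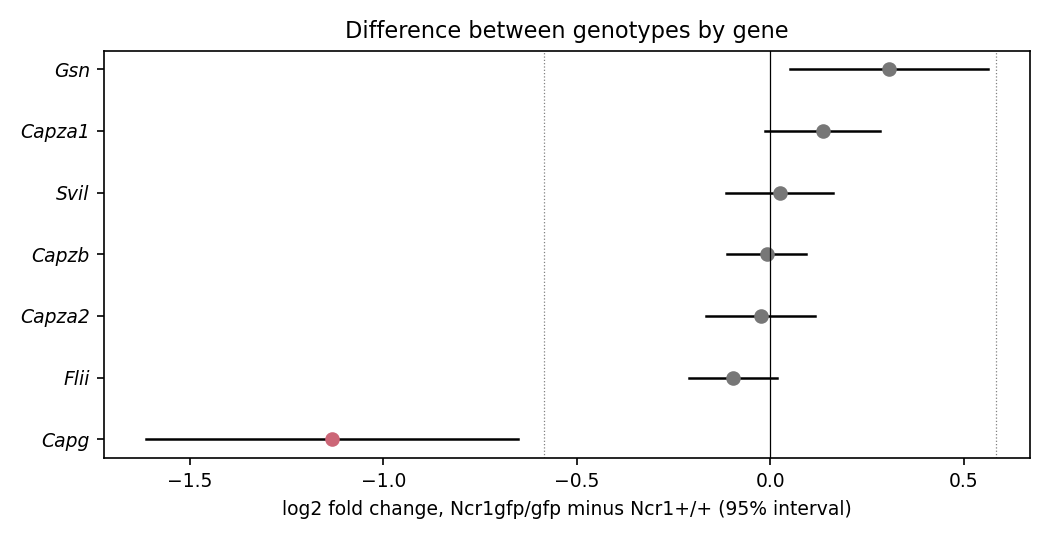
Log2 fold change of *Ncr1*gfp/gfp against *Ncr1*+/+ ILC1s (points) with its 95% interval (lines) for the 7 tested members, with dotted lines at 1.5-fold in either direction. The interval of *Capg* (red) runs from -1.61 to -0.65 and lies outside the dotted lines, and those of the other 6 genes lie within them.

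Other regulators of actin were examined in 5 lists, of which 88 of 110 genes passed the filter. At an adjusted p under 0.05 there were 3 genes, 2 lower and 1 higher in *Ncr1*gfp/gfp, or 3.41% of the tested list genes against 1.35% of all tested genes (edgeR's quasi-likelihood test and Benjamini-Hochberg adjustment). Over all 5 lists, 56 genes (63.6%) were lower and 32 higher, with a median log2 fold change of -0.02, where 49.3% of all tested genes were lower. The 95% interval of the fold change lay within 1.5-fold for 73 of the 88 genes (83.0%). The lists were chosen with earlier results of these data known, so nothing is read from these shares.

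Among 9 tested genes of other capping proteins at either filament end, 7 had a log2 fold change below 0, the median was -0.03, and 1 gene passed the test, as lower. This gene was *Eps8l1*, a relative of the barbed-end capping protein gene *Eps8* that lies close to *Ncr1* on chromosome 7. Its reads numbered 268, 1323, 1238, 337 and 291 in the *Ncr1*+/+ libraries and 0, 0, 13, 1 and 1 in the *Ncr1*gfp/gfp libraries, in replicate order. *Ncr1*+/+ replicates 2 and 3 were the high ones, and no *Ncr1*gfp/gfp library came near the lowest of them, with a fitted log2 fold change of -7.61 (adjusted p = 3.20e-07, edgeR's quasi-likelihood test). The size of this value depends on few reads, and it was -9.92 without *Ncr1*gfp/gfp replicate 3, which holds 13 of them. The most abundant genes of this list were *Add1* (adducin 1) at 85.4 RPKM, *Twf2* (twinfilin 2) at 63.6 RPKM and *Tmod3* (tropomodulin 3, a pointed-end cap) at 42.0 RPKM, with log2 fold changes of -0.03, -0.03 and -0.02. *Avil* and *Vill* in this list also belong to the gelsolin family, at 12.4 and 1.54 RPKM. Their log2 fold changes were 0.31 and -0.06, with adjusted p of 0.316 and 0.970 (edgeR's quasi-likelihood test), and the genotypes overlapped.

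Proteins that bind or displace capping protein itself formed the next list. Each of the 7 tested genes had a log2 fold change below 0, with a median of -0.11, but only *Sh3kbp1* passed the test. This gene, which encodes the adaptor CIN85, was at 201, 196, 206, 178 and 184 CPM in *Ncr1*+/+ replicates 1 to 5 and at 163, 125, 156, 148 and 166 CPM in *Ncr1*gfp/gfp replicates 1 to 5. No library of one genotype reached into the range of the other, and the log2 fold change of -0.35 (standard error 0.07) had an adjusted p of 0.0142 by edgeR's quasi-likelihood test. Without *Ncr1*+/+ replicate 3 the adjusted p was 0.0556. The most abundant genes of the list were *Rcsd1* (CAPZIP) at 109 RPKM, *Mtpn* (myotrophin, which sequesters capping protein) at 48.8 RPKM and *Carmil2* (which removes capping protein from filament ends) at 37.9 RPKM, with log2 fold changes of -0.02, -0.04 and -0.13.

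For filament nucleation and elongation, 1 of 34 tested genes passed the test and the median log2 fold change was -0.00. *Abi3*, a component of the WAVE complex that activates Arp2/3, was at 140, 121, 142, 154 and 161 CPM in *Ncr1*+/+ replicates 1 to 5 and at 166, 179, 195, 181 and 183 CPM in *Ncr1*gfp/gfp replicates 1 to 5. The values of *Abi3* did not overlap, and the log2 fold change of 0.33 (standard error 0.07) had an adjusted p of 0.0188 by edgeR's quasi-likelihood test. The adjusted p rose to 0.0594 without *Ncr1*gfp/gfp replicate 3, to 0.0557 without *Ncr1*+/+ replicate 1 and to 0.0617 without *Ncr1*+/+ replicate 3. The most abundant genes, *Arpc2* (an Arp2/3 subunit) at 298 RPKM and *Evl* and *Vasp* (which elongate filaments) at 253 and 210 RPKM, had log2 fold changes of 0.02, -0.00 and -0.01.

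None of the 23 tested genes of filament turnover and none of the 15 tested genes of filaments and cross-linkers passed the test, and the median log2 fold change was -0.02 in both lists. The highest levels were those of *Tmsb4x* (thymosin beta 4, which sequesters monomers) at 3955 RPKM, *Pfn1* (profilin) at 1360 RPKM and *Coro1a* (coronin 1A) at 534 RPKM, and of *Actb* (beta-actin) at 4009 RPKM, *Lcp1* (L-plastin) at 519 RPKM and *Msn* (moesin) at 281 RPKM. Their log2 fold changes ranged from -0.09 for *Coro1a* to 0.03 for *Tmsb4x*.

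**Figure D4:**
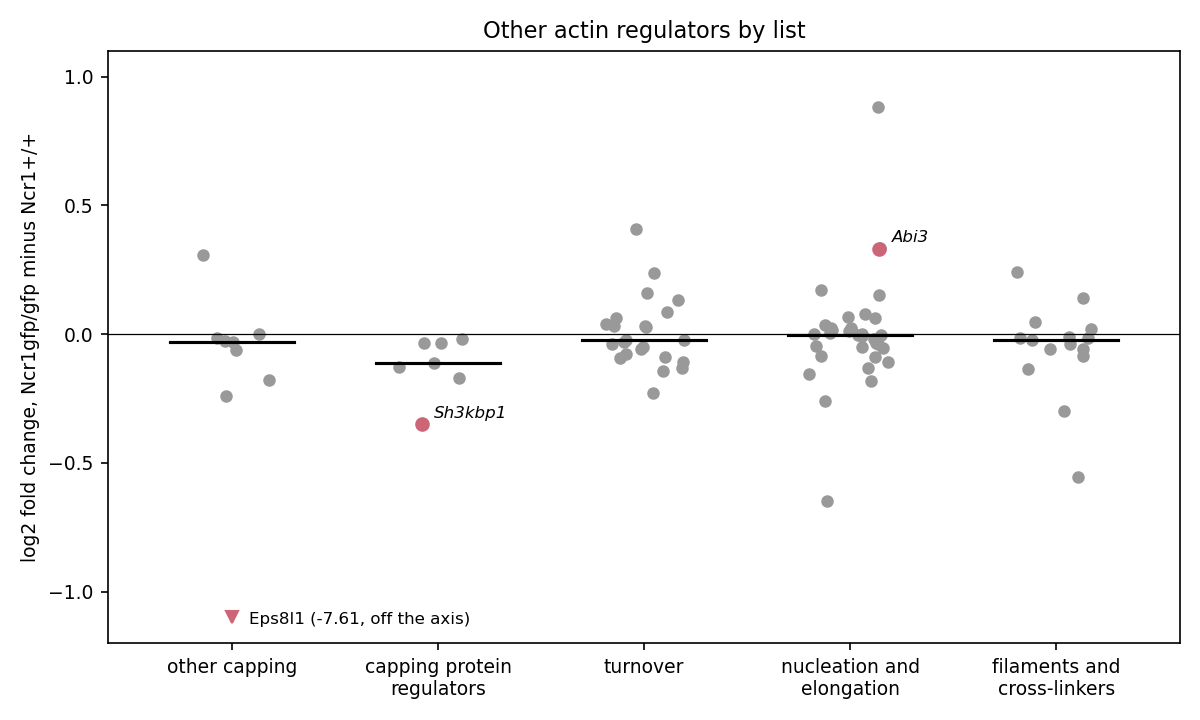
Log2 fold change of *Ncr1*gfp/gfp against *Ncr1*+/+ ILC1s for each tested gene of the 5 actin lists (points, 88 genes), with the median of each list as a bar and genes at an adjusted p under 0.05 in red. *Eps8l1*, at -7.61, is drawn as a triangle at the lower edge, and the medians lie between -0.11 and -0.00.

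Since *Capg* is abundant in macrophages, 12 macrophage marker genes were summed in each library. The sum was 16.7, 40.5, 41.2, 46.4 and 82.9 CPM in *Ncr1*+/+ replicates 1 to 5 and 25.6, 12.7, 49.5, 56.8 and 33.4 CPM in *Ncr1*gfp/gfp replicates 1 to 5, and the genotypes overlapped (two-sided exact permutation test, p = 0.492, adjusted p = 0.582 over 13 tests). *Ncr1*+/+ replicate 1 had the lowest sum of its genotype, with *Capg* at 9.03 CPM, and *Ncr1*gfp/gfp replicate 4 had the highest of its genotype, with *Capg* at 3.21 CPM, the lowest of all libraries. The highest *Capg* level, 14.1 CPM, was in *Ncr1*+/+ replicate 5, which also had the highest macrophage sum. Of the 12 markers, 9 passed the filter and none of these was at an adjusted p under 0.05 (edgeR's quasi-likelihood test). The part of macrophage RNA in the level of *Capg* was not tested. The sum of 7 T cell markers, of which *Cd3g* made 93.8%, was higher in each *Ncr1*gfp/gfp library (633 to 835 CPM) than in each *Ncr1*+/+ library (461 to 579 CPM) (p = 0.00794 by the same exact permutation test, the lowest value that 5 against 5 libraries can give, adjusted p = 0.103). Of the 5 T cell markers that passed the filter, 3 were at an adjusted p under 0.05 by edgeR's quasi-likelihood test. These were *Cd3g*, *Cd3e* (9.05 to 38.8 CPM in *Ncr1*gfp/gfp and 2.80 to 6.85 CPM in *Ncr1*+/+) and *Cd8a* (11.8 to 36.4 CPM and 1.35 to 9.70 CPM), and the genotypes did not overlap. The part of T cell RNA in the level of *Capg* was not tested either.

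**Figure D5:**
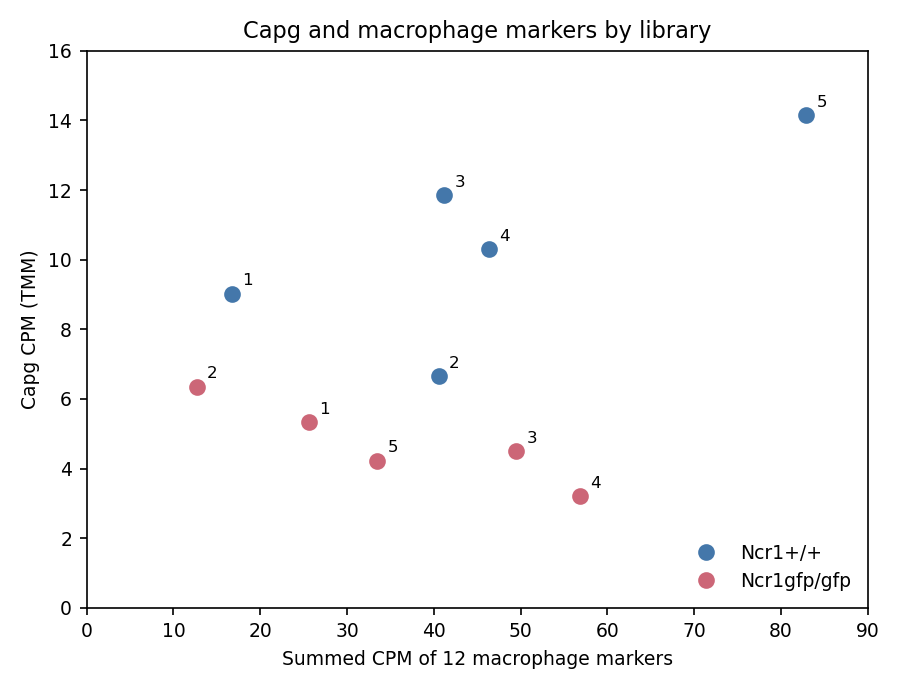
*Capg* CPM against the summed CPM of 12 macrophage markers, with each point 1 library labelled by its replicate number (blue, *Ncr1*+/+, and red, *Ncr1*gfp/gfp). The macrophage sums overlap between the genotypes, from 16.7 to 82.9 CPM in *Ncr1*+/+ and from 12.7 to 56.8 CPM in *Ncr1*gfp/gfp. The *Capg* values are apart by the choice of the gene.

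The genes with the profile most like that of *Capg* over the 10 libraries were found by the root mean square distance between log2 CPM values, each centred on the mean of its gene. The nearest were *Chst2* at a distance of 0.31, *Ly6a* and *Pde4d* at 0.34, *Rnase4* at 0.35 and *Tnfrsf10b* at 0.36, where the median of all tested genes was 0.69 and the *Capg* profile itself departed from a flat line by 0.65. *Chst2* encodes a sulfotransferase, *Ly6a* the surface protein Sca-1, *Pde4d* a cyclic AMP phosphodiesterase, *Rnase4* a ribonuclease and *Tnfrsf10b* the mouse receptor of TRAIL. Their log2 fold changes were -0.94, -0.97, -1.04, -0.87 and -0.67 in that order, which their likeness to *Capg* fixes in sign. The adjusted p was 0.0387, 0.293, 0.107, 0.00404 and 0.566 (edgeR's quasi-likelihood test), so *Ly6a*, *Pde4d* and *Tnfrsf10b* did not pass the threshold. The means of these nearest genes were at most 13.1 CPM in either genotype, so that counting error is part of each profile. None of the other tested members was among these nearest genes. *Scin* and *Vil1* did not pass the filter on low counts and were not searched.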

How the data were processed

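Raw counts per gene were deposited by the authors for 10 liver ILC1 libraries (5 *Ncr1*gfp/gfp, 5 *Ncr1*+/+). They amplified 2 ng of total RNA with polyA priming, read 51 cycles from a single end, trimmed and mapped the reads with STAR, and counted them with HTSeq on default settings, without normalization. The table also gives exon length, used here for RPKM. HTSeq by default counts by strand, whereas this kit does not mark strand, so overlapping antisense genes can share reads. Mapping was to mm10 by the study's methods, but the table's coordinates match no member's start in GRCm38 (the same assembly) and are printed as listed. The genes and lists were chosen with earlier results of these data known.

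Counts were filtered with filterByExpr (11463 of 24564 genes kept), normalized by TMM and tested with edgeR 4.0.16 in R 4.3.3 (quasi-likelihood test, Benjamini-Hochberg over all tested genes). The thresholds for a call were an adjusted p of 0.05 with a fold of 1.5 (higher) or 0.7 (lower). The scripts were tested on simulated data. Exact permutation tests (two-sided) compared library depth and marker sums. Named genes were all 9 members, list genes at an adjusted p under 0.05, the 3 list genes highest in RPKM, and the 5 profiles nearest to *Capg*. *Avil* and *Vill* were named besides, as further genes of the gelsolin family. Alternatives were DESeq2 1.42.0, other size factors and filters, a replicate block and leaving out libraries. No pair of libraries of a genotype agreed within sampling noise. Total counts of 15796253 to 22623133 set the precision.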

Additional observations from a re-analysis of the deposited data

Results flagged for a closer look

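A library stood apart from the other 4 of its genotype in 4 of the 49 groups examined by Dixon's ratio at the 95% level, where chance gives about 1 in 20, or 2.45. Among the members, *Scin* had 0.49 CPM in *Ncr1*+/+ replicate 5 and 0 in the others. With 0 in the others the ratio takes its highest value at any count, so the chance rate does not apply to *Scin*. The summed hepatocyte markers were 214 CPM in *Ncr1*gfp/gfp replicate 3, with 147 CPM in the next library, and 182 CPM in *Ncr1*+/+ replicate 1, with 146 CPM in the next. The summed neutrophil markers were 12.1 CPM in *Ncr1*gfp/gfp replicate 3, with 2.62 CPM in the next library. No level of *Capg*, *Gsn*, *Flii*, *Svil*, *Capza1*, *Capza2* or *Capzb* stood apart in this way.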

How the results depend on the processing

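*Capg* was the 1 member past the adjusted threshold under every alternative run, with log2 fold changes of -1.16 to -1.12 and, with each library left out in turn, -1.27 to -0.996. These fits reuse the libraries by which *Capg* was chosen, so its passing is a description and adds no support. All genes called numbered 84, and 128 with DESeq2, 131 without a filter on low counts, 155 without a fold threshold and 60 to 98 with a library left out. Actin list genes past the threshold numbered 3, and 1 to 4 with a library left out. That 1, without *Ncr1*+/+ replicate 3, was *Eps8l1*, as it was without both libraries highest in albumin, an alternative chosen after seeing the data. Changes of sign among the alternatives were limited to members near 0. With a library left out, *Svil* ranged from -0.0090 to 0.066, *Capza2* from -0.063 to 0.0045 and *Capzb* from -0.034 to 0.019. The sign turned for *Capza2* without *Ncr1*gfp/gfp replicate 1 (0.0026) or *Ncr1*+/+ replicate 1 (0.0045), for *Svil* without *Ncr1*gfp/gfp replicate 4 (-0.0048), *Ncr1*+/+ replicate 1 (-0.0090) or both libraries highest in albumin (-0.0097), and for *Capzb* without *Ncr1*gfp/gfp replicate 5 (0.019), *Ncr1*+/+ replicate 1 (0.0040) or *Ncr1*+/+ replicate 5 (0.0036). The cause of these moves was not tested. Libraries with the same replicate number were not alike across genotypes (correlations of log2 CPM centred within genotype, -0.017 to 0.044). This cannot show whether they shared a day or a litter. A replicate block gave 87 called genes, 1 member and 3 actin list genes, with *Capg* at -1.12 (adjusted p = 0.0363, edgeR's quasi-likelihood test). Depth limits *Scin* and *Vil1*, and *Capg* rests on 54 to 260 reads per library.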
